A study of Mus musculus with 11 samples.

Results

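The cytosolic ribosomal protein genes of mouse skin were followed after dosing with ABBV-075, also called mivebresib, a small molecule that blocks the bromodomains of BET proteins. They were chosen by symbol: Rpl or Rps with a number, or Rplp0, Rplp1, Rplp2 or Rpsa, without the Rps6k kinases and without pseudogenes. A gene also needed an array probe set annotated to it alone, and its brightest such probe set was used. This gave 48 of 18194 genes, 26 of the large and 22 of the small ribosomal subunit. Rps4l matched the symbol rule but is a transcribed pseudogene in RefSeq and was left out. Another 29 ribosomal protein symbols, among them Rpl3, Rpl5, Rpl10 and Rplp1, appear only on probe sets shared with other genes and have no value of their own here.

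Whole skin came from 3 mice given vehicle, 4 mice taken 6 h after 1 mg/kg ABBV-075 and 4 mice taken 24 h after the same dose, with 1 Affymetrix expression array per mouse. Strain, sex, age, the vehicle's composition and the time at which vehicle skin was taken are not given in the labels. Values are log2(intensity + 16) after quantile normalization, which forces all arrays onto 1 distribution, and a value of 4.00 is the floor. Differences are given ± standard error from limma, fitted over all genes, and a gene counts as called when its p-value, adjusted over all 13710 genes tested, is under 0.05.

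Each ribosome carries nearly every ribosomal protein, and the genes for these proteins are expressed in all cells at high levels. Their mRNAs start with a run of pyrimidines, the TOP motif, through which the kinase mTORC1 and the protein Larp1 control translation. BET proteins assist transcription by RNA polymerase II, and some genes respond to their inhibitors within hours.

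The starts of several ribosomal protein genes are shown first because the TOP motif lies there. RefSeq promoter windows (GRCm38.p6, 250 bases before to 50 after the annotated start) were found for 43 of the 48 genes, 51 windows in all. Each line below runs from 10 bases before to 20 bases from the annotated start onward, with the longest run of C or T in capitals. The genes shown are 5 whose values lay highest above vehicle at 6 h after quantile normalization. They are followed by Rpl38, which lay below vehicle at both times in these normalized values, and Rpl3l, the striated muscle paralogue of Rpl3.
Rps6, chr4:86857348-86857377, minus strand: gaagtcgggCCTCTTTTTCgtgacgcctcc
Rpl27a, chr7:109519185-109519214, plus strand: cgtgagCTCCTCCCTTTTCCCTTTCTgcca
Rpl37, chr15:5116603-5116632, plus strand: CCTgggcggaagcttatccacaggaagtgg
Rpl12, chr2:32961702-32961731, plus strand: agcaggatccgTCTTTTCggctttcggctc
Rpl39, chrX:37085203-37085232, minus strand: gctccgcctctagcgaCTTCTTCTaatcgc
Rpl38, chr11:114668570-114668599, plus strand: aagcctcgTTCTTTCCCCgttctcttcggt
Rpl3l, chr17:24727816-24727845, plus strand: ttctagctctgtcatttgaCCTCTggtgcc

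The run of pyrimidines was 20 bases long in Rpl27a and 10 in both Rps6 and Rpl38, against 5 in Rpl3l and 3 in Rpl37. Over the 50 bases around the annotated start, 45.1% of the ribosomal protein windows held a run of at least 8 pyrimidines, against 19.7% of all 32851 windows. The ETS factor motif CCGGAAG, searched on both strands of the 300 bases, was in 41.2% of the ribosomal protein windows and in 8.86% of all windows. The motif AAGATGG, bound by YY1, was in 15.7% against 6.34%, and the E-box CACGTG in 9.8% against 7.15%. Annotated starts can lie away from the main start used in skin, so a short run says only that these letters are absent from this window. Members with long and short runs were found both above and below vehicle at 6 h.

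The signal of these genes was high and varied little. Of the 48 genes, 47 passed the filter on low signal, and Rps16 did not because its only probe set lay at the floor. Of the 47, 38 had a probe set among the brightest 2% of all genes tested. Their residual SD within groups had a median of 0.126 on the log2 scale, against 0.344 over all genes, and 42 of 47 lay below that all-gene median. A narrow spread is partly built in at this signal: the probe set of Rps29 was the brightest on every array, so quantile normalization gave it 14.04 on all 11 arrays and a difference of 0. The signal of 2 different probe sets cannot be read as relative RNA amounts.

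Arrays differed in ways that run along the groups. The ratio of 5' to 3' signal of beta-actin, which falls with shortened RNA, was 0.484 to 0.593 on vehicle arrays, 0.0725 to 0.425 at 6 h and 0.198 to 0.529 at 24 h, and it was lowest on 6 h replicate 5. All 7 fibroblast, 7 macrophage and dendritic cell, 5 endothelial, 5 adipocyte and 4 mast cell markers measured lay below vehicle at both times, and all 7 basal keratinocyte markers lay above it. The mean level of the endothelial list was 7.75 to 8.72 in vehicle, 6.46 to 7.27 at 6 h and 6.26 to 7.41 at 24 h. That of the basal keratinocyte list was 9.91 to 10.59, 9.92 to 11.52 and 10.26 to 12.12, with 24 h replicate 4 highest. In whole skin, fewer cells of a type and less RNA per cell cannot be told apart, and the part of these shifts in the values below was not tested.

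No ribosomal protein gene was called at 6 h, where 0% of all genes were called. The 47 genes had a median difference from vehicle of 0.025, against 0.0037 over all genes, with 25 higher, 21 lower and Rps29 at 0, where 50.4% of all genes were higher. The size of the difference, whatever its sign, had a median of 0.096, against 0.28 over all genes, and 34 of 47 lay within 0.2 of vehicle. At an unadjusted p under 0.05 there were 6 genes, Rps6, Rpl37, Rpl12, Rpl27a, Rps27 and Rpl39, all above vehicle. Of all genes, 16.1% reached this p and 8.02% did so above vehicle. The 6 h and vehicle arrays did not overlap for 8 of the 47, where 18.5% of all genes did not. Rpl12, Rpl37, Rpl7l1, Rps6, Rps18 and Rps24 were higher, as were 9.77% of all genes, and Rpl38 and Rps10 were lower, as were 8.77%.

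**Figure D1:**
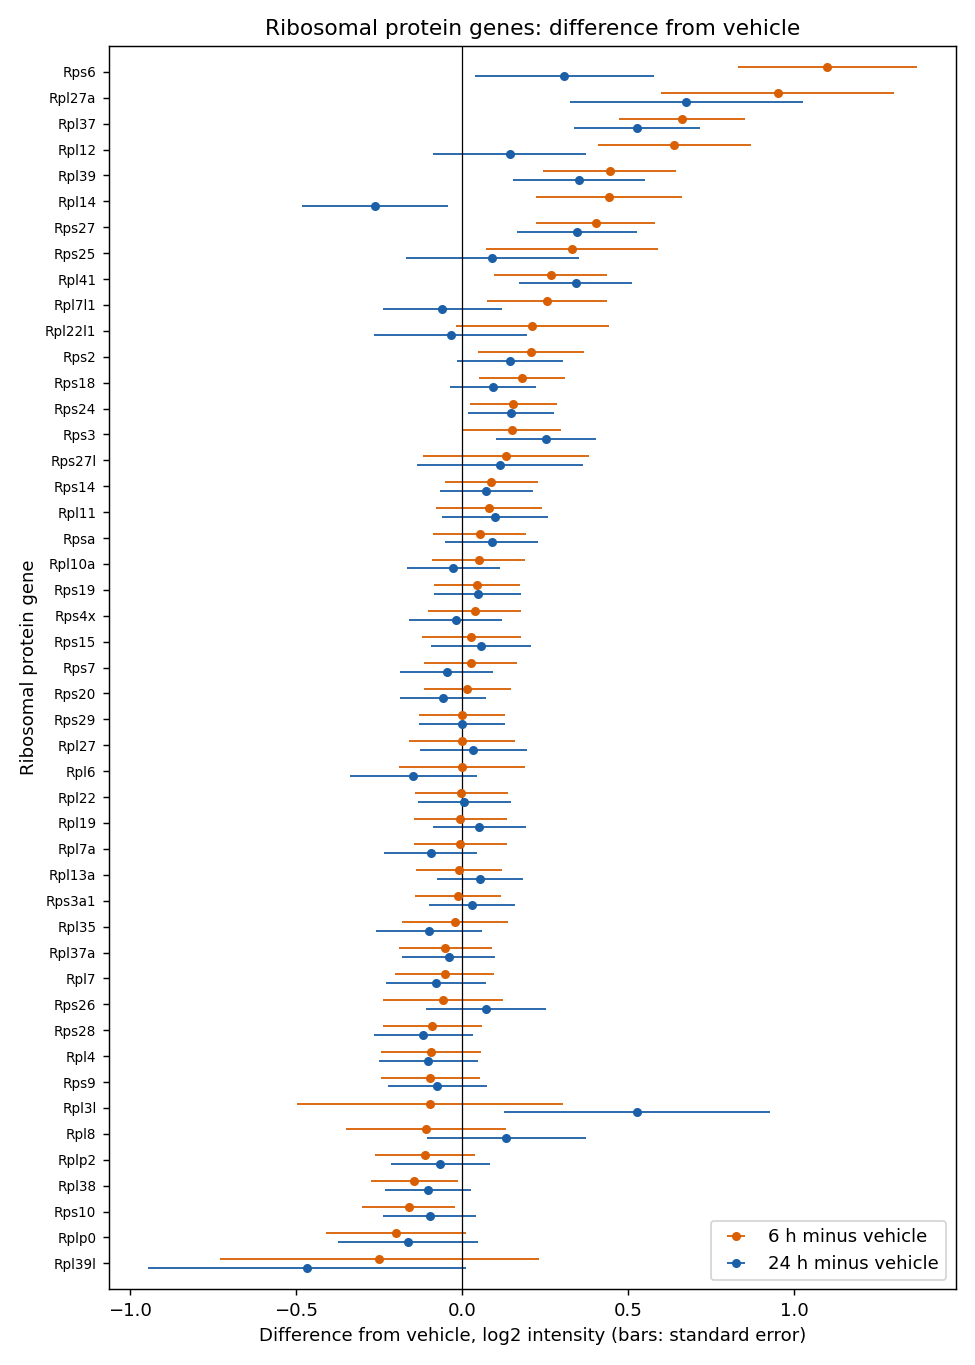
Difference from vehicle on the log2 intensity scale (x axis) for each of the 47 ribosomal protein genes tested (y axis), at 6 h in orange and 24 h in blue; points are fitted differences and bars the standard error. Most genes lie within 0.2 of 0, and the 6 h values of Rps6, Rpl27a, Rpl37 and Rpl12 lie farthest above it.

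Rps6 encodes the small subunit protein that S6 kinase phosphorylates. Its vehicle arrays read 7.84, 7.82 and 7.75, its 6 h arrays 8.94, 8.64, 9.02 and 9.03, and its 24 h arrays 7.68, 7.91, 8.98 and 7.87. The 6 h and vehicle arrays did not overlap, and at 24 h only replicate 3 lay at the 6 h level. The difference at 6 h was 1.10 ± 0.27 (limma adjusted p = 0.15). This probe set is dim, at a mean level of 8.32. The 9 probe sets that read Rps6 together with the pseudogene Rps6-ps4, at levels of 8.05 to 13.39, gave 6 h differences of -0.05 to 0.92, and the 5 of level 12 or more gave -0.05 to 0.35. In the deposited intensities the Rps6 probe set read 298, 318 and 259 in vehicle and 728, 276, 250 and 360 at 6 h, so that only replicate 1 and replicate 5 lay above all vehicle arrays before normalization.

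Rpl37, a small zinc-binding protein of the large subunit, read 10.93, 10.73 and 10.75 in vehicle, 11.54, 11.37, 11.53 and 11.40 at 6 h and 10.94, 11.33, 11.28 and 11.76 at 24 h. After quantile normalization all 8 treated arrays lay above all vehicle arrays, narrowly so in 24 h replicate 1. As deposited, Rpl37 read 2729, 2481 and 2035 in vehicle and 3970, 1931, 1728 and 2423 at 6 h. The deposited 24 h values were 2138, 2203, 1796 and 2485. Only 6 h replicate 1 lay above all vehicle arrays before normalization, and the 6 h difference was then -0.0097. The differences were 0.66 ± 0.19 at 6 h (limma adjusted p = 0.18) and 0.53 ± 0.19 at 24 h (limma adjusted p = 0.58). The probe set used has a level of 11.23, and 2 brighter ones that read Rpl37 together with Rpl37rt, at 13.31 and 13.30, gave 0.08 and 0.05 at 6 h and -0.02 and 0.06 at 24 h. A dim one that reads the same pair, at 7.56, gave 0.50 and 0.46. Rpl37 was the 1 gene of the 47 with an unadjusted p under 0.05 at both times.

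Rpl12, which sits at the base of the P stalk that recruits elongation factors, read 7.21, 7.44 and 7.37 in vehicle, 8.29, 8.10, 7.63 and 7.88 at 6 h and 7.20, 7.42, 7.27 and 8.03 at 24 h. After quantile normalization the 6 h arrays lay above vehicle, while at 24 h only replicate 4 did. As deposited, Rpl12 read 176, 237 and 198 in vehicle and 461, 191, 86 and 134 at 6 h. Only 6 h replicate 1 of these lay above all vehicle arrays. The 6 h difference of Rpl12 was 0.64 ± 0.23 after quantile normalization, from a dim probe set of level 7.62, and -0.14 as deposited. Bright probe sets that read Rpl12 together with other genes, at 12.57 and 13.11, gave 0.10 and 0.15. Of the stalk proteins, Rplp0 differed by -0.20 ± 0.21 and Rplp2 by -0.11 ± 0.15 at 6 h. None of the 3 genes was called.

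Rpl27a, of the large subunit, read 6.88, 7.13 and 7.56 in vehicle, 7.26, 8.15, 8.59 and 8.58 at 6 h and 7.25, 8.32, 7.98 and 7.92 at 24 h. Replicate 1 of each treated group lay within the vehicle range, and the other 6 treated arrays lay above it. The 6 h difference was 0.95 ± 0.35 on this dim probe set, of level 7.78, while the bright probe set that reads Rpl27a together with 4 other genes, at 13.36, gave 0.06 at 6 h and 0.02 at 24 h.

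Rps27, a zinc-binding protein of the small subunit, read 12.03, 12.09 and 12.18 in vehicle, 12.13, 12.59, 12.74 and 12.55 at 6 h and 12.25, 12.54, 12.56 and 12.42 at 24 h. Rpl39, which lines the exit of the nascent peptide tunnel, read 11.65, 11.62 and 11.71, then 11.61, 12.13, 12.42 and 12.26, then 11.81, 12.08, 12.19 and 11.98. For both, 6 h replicate 1 stayed within or below the vehicle values and all 24 h arrays lay above them. Probe sets shared with another gene gave smaller differences: 0.22 at 6 h for Rps27 with Rps27rt, against 0.40 ± 0.18, and 0.08 for Rpl39 with Gm32211, against 0.44 ± 0.20.

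**Figure D2:**
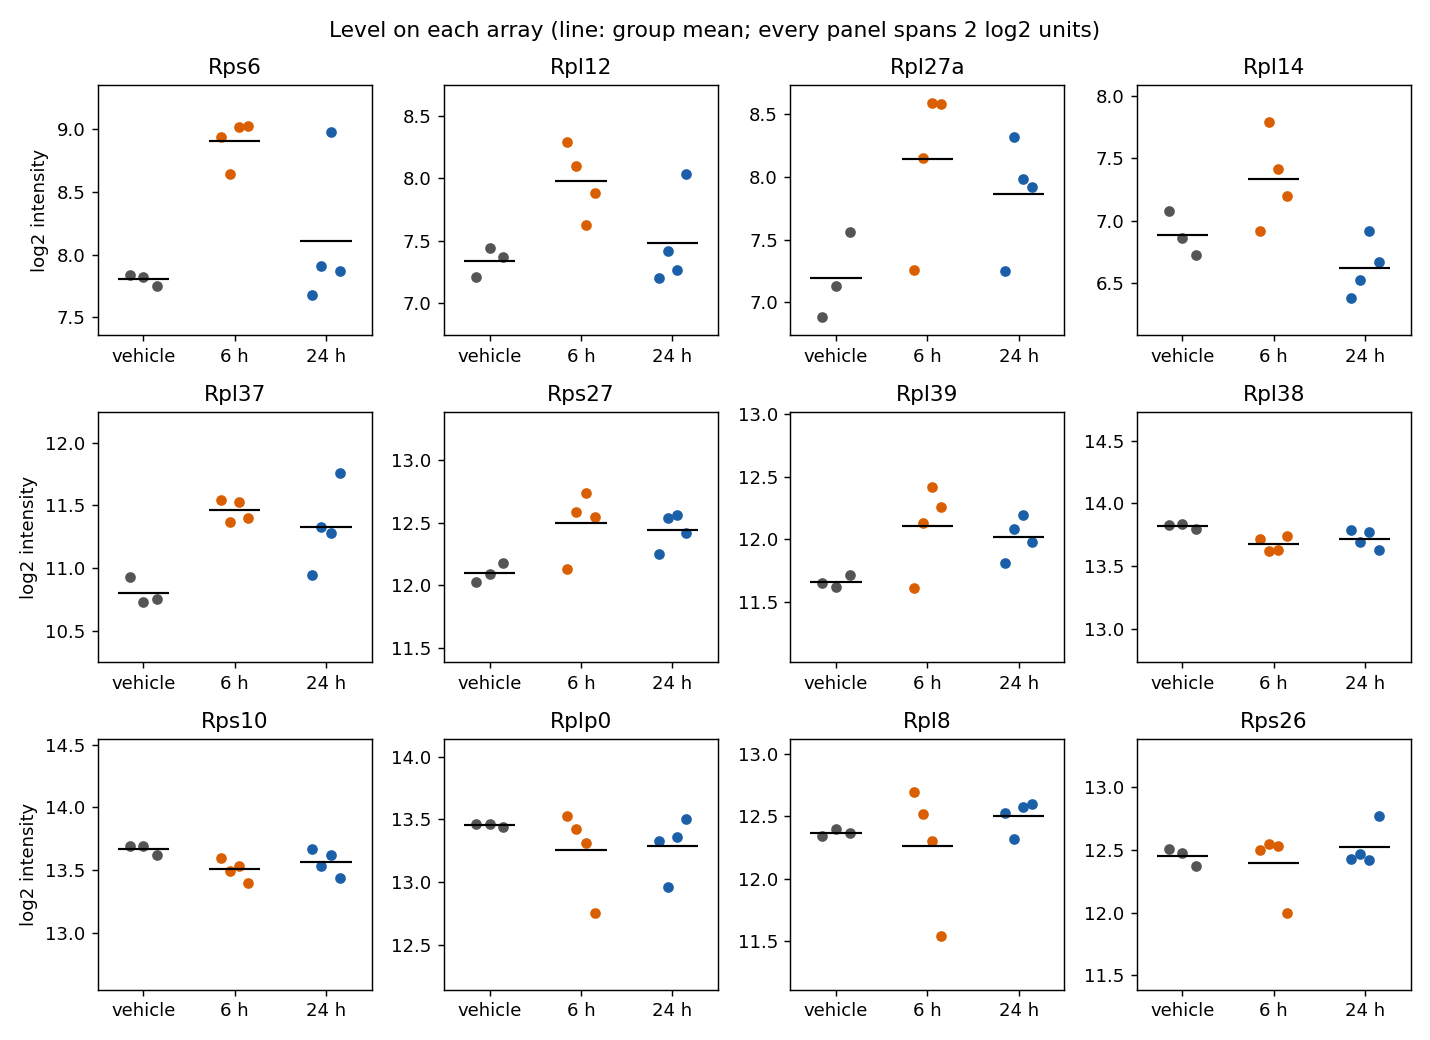
Level of 12 ribosomal protein genes on each array (y axis, log2 intensity) in vehicle, 6 h and 24 h skin (x axis); each point is 1 mouse and the line is the group mean. After quantile normalization Rps6 and Rpl12 are highest at 6 h and Rpl37 lies above vehicle on all treated arrays. Rplp0, Rpl8 and Rps26 have 1 low array at 6 h, replicate 5.

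The lowest difference at both times was that of the paralogue Rpl39l, at -0.25 ± 0.48 and -0.47 ± 0.48, with widely scattered arrays. Rpl38, of the large subunit, read 13.83, 13.84 and 13.80 in vehicle, 13.72, 13.62, 13.63 and 13.74 at 6 h and 13.79, 13.69, 13.77 and 13.63 at 24 h. After quantile normalization all treated arrays lay below all vehicle arrays, with differences of -0.14 ± 0.13 and -0.10 ± 0.13. The sign depended on the normalization: the 6 h difference of Rpl38 was 0.24 after median scaling, 0.098 after cyclic loess and -0.21 as deposited. Its 24 h difference ran from -0.29 to 0.13 over the alternative settings. Rps10, of the small subunit, lay below vehicle on all 6 h arrays, at 13.60, 13.49, 13.53 and 13.40 against 13.69, 13.69 and 13.62, a difference of -0.16 ± 0.14. Other probe sets of Rps10 alone gave -0.05, 0.02, -0.06, 0.26 and 0.66 at 6 h, the last at a level of 5.22. The difference of the probe set used was 0.17 after median scaling, 0.045 after cyclic loess and -0.29 as deposited. Rplp0, the scaffold of the stalk, read 13.46, 13.46 and 13.44 in vehicle and 13.53, 13.42, 13.31 and 12.75 at 6 h. Its lowest array was 6 h replicate 5, the array with the lowest actin ratio, and without that array the 6 h difference was -0.031 in place of -0.20. Rpl8 was likewise low on that array, at 11.54 against 12.30 to 12.69 on the other 6 h arrays, and its difference went from -0.11 to 0.13 without it.

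At 24 h no ribosomal protein gene was called, where 0% of all genes were. The median difference from vehicle was 0.034, against -0.020 over all genes, with 26 genes higher, 20 lower and Rps29 at 0, where 47.6% of all genes were higher. Of the 47, 37 lay within 0.2 of vehicle. Rpl37 alone had an unadjusted p under 0.05, which 7.63% of all genes reached, 3.16% above vehicle. The groups did not overlap for 7 of the 47, where 11.1% of all genes did not. Rpl37, Rpl39, Rpl41, Rps18, Rps24 and Rps27 were higher, as were 5.09% of all genes, and Rpl38 was lower, as were 6.02%. Rpl41, the smallest ribosomal protein, read 12.36, 12.29 and 12.40 in vehicle and 12.48, 12.80, 12.66 and 12.81 at 24 h, a difference of 0.34 ± 0.17. The smallest adjusted p of the 47 was 0.58.

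Between 24 h and 6 h no gene of the set was called either, with 0% of all genes called. The median difference was -0.015, against -0.019 over all genes, and 20 genes were higher and 26 lower, where 47.4% of all genes were higher. Rpl14, Rps6 and Rpl12 were lower at 24 h with an unadjusted p under 0.05, which 9.27% of all genes reached, 5.51% on the lower side. No gene of the set had groups that did not overlap, where 5.46% of all genes did. Rpl14, of the large subunit, read 6.92, 7.79, 7.41 and 7.20 at 6 h and 6.38, 6.53, 6.92 and 6.67 at 24 h, against 7.08, 6.86 and 6.73 in vehicle. Its 24 h difference from 6 h was -0.71 ± 0.20 (limma adjusted p = 0.32) and from vehicle -0.26 ± 0.22. This probe set is dim, at a level of 6.95, and the 5 probe sets that read Rpl14 together with Rpl14-ps1, at 12.12 or more, gave -0.10 to 0.05 between 24 h and 6 h. Rpl6, of the large subunit, differed by -0.15 ± 0.19 from vehicle at 24 h, with replicate 2 lowest at 12.03, and its difference was 0.0049 without that array.

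Many of the larger differences at 6 h were read by dim probe sets. The 48 genes have 104 probe sets of their own, of which 2 lay at the floor on every array. Of the 19 others with a mean level under 8, 18 were higher at 6 h, with a median difference of 0.42, where 54.1% of all 35171 probe sets of that level were higher with a median of 0.034. Of the 15 between 8 and 12, 11 were higher with a median of 0.33, where 54.7% of all probe sets of that level were higher with a median of 0.042. Of the 68 at 12 or more, 40 were higher with a median of 0.032. Among all 436 probe sets of that level, 59.2% were higher with a median of 0.039. Those 436 include these 68 and 80 more that read a ribosomal protein gene together with other genes, so they are no separate background. At 24 h, 11 of the 19 dim probe sets were higher with a median of 0.14, where 52.6% of all probe sets of that level were. Of the 15 between 8 and 12, 12 were higher with a median of 0.30, where 52.4% were, and of the 68 brightest, 44 with a median of 0.052, where 57.3% were. These probe sets share genes and are not independent, and this grouping by level was chosen after the values were seen.

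Other probe sets read a ribosomal protein gene together with other genes, often its pseudogenes, and their median difference at 6 h was also larger at low levels. Of 16 with a level under 8, 15 were higher at 6 h with a median of 0.35, where 54.1% of all probe sets of that level were. Of 80 at 12 or more, 63 were higher with a median of 0.056. That is 78.8%, against 59.2% of all probe sets of that level, these included, and 58.8% of the genes' own. Taken per array over the 34 probe sets of level under 12, the median difference from the vehicle mean was 0.16, 0.34, 0.51 and 0.38 on the 6 h arrays and -0.096, 0.22, 0.28 and 0.27 on the 24 h arrays. Vehicle arrays lay between -0.015 and 0.002, but they are held near 0 because the differences were taken from their own mean. This range therefore does not measure the spread between mice. The SD within groups, pooled over the 3 groups, was 0.14. All 6 h arrays and all 24 h arrays but replicate 1 lay above 0. In the values as deposited the median of these probe sets at 6 h was -0.16, with -0.39 over all probe sets of that level.

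**Figure D3:**
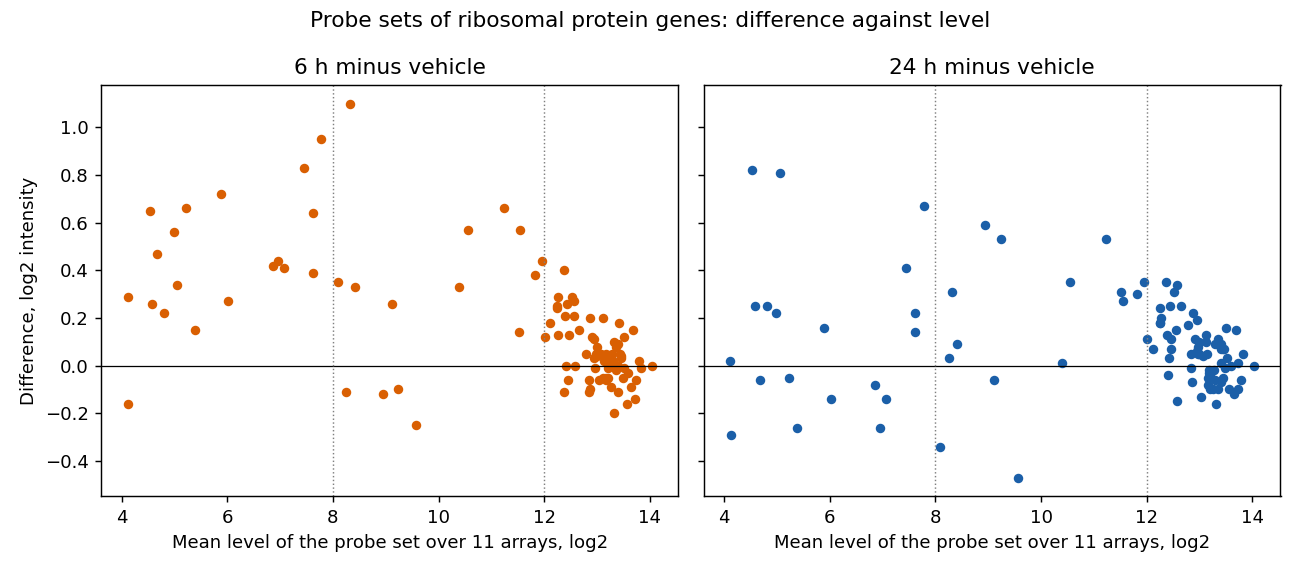
Difference from vehicle (y axis, log2 intensity) against the mean level of the probe set over 11 arrays (x axis, log2) for the probe sets of ribosomal protein genes, at 6 h on the left and 24 h on the right; dotted lines mark levels 8 and 12. Left of the line at 8, 18 of 19 points lie above 0 at 6 h and 11 of 19 at 24 h.

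The direction of the set as a whole depended on the normalization. At 6 h the median of the 47 genes was 0.025 after quantile normalization, 0.17 after cyclic loess, 0.24 after median scaling and -0.22 as deposited. The all-gene medians were 0.0037, -0.040, -0.23 and -0.68. At 24 h the 47 genes gave 0.034, 0.18, 0.019 and -0.29, and all genes -0.020, -0.047, -0.31 and -0.62. The median of the set lay above that of all genes under each of the 4 at both times. Since 38 of the 47 genes were among the brightest 2%, signal level differs between the set and all genes. Genes of like level were not set beside these medians. No gene of the set was called under any of the 4. With limma's array weights, which give less weight to arrays that fit the group means poorly, 6 genes were called at 6 h: Rps6, Rpl37, Rpl12, Rpl27a, Rpl14 and Rps27. Their adjusted p ran from 0.0095 to 0.045, in a fit that called 18.2% of all genes, 1057 higher and 1441 lower. Between 24 h and 6 h the same fit called Rpl12 and Rpl14, both lower at 24 h, and 3.09% of all genes.

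**Figure D4:**
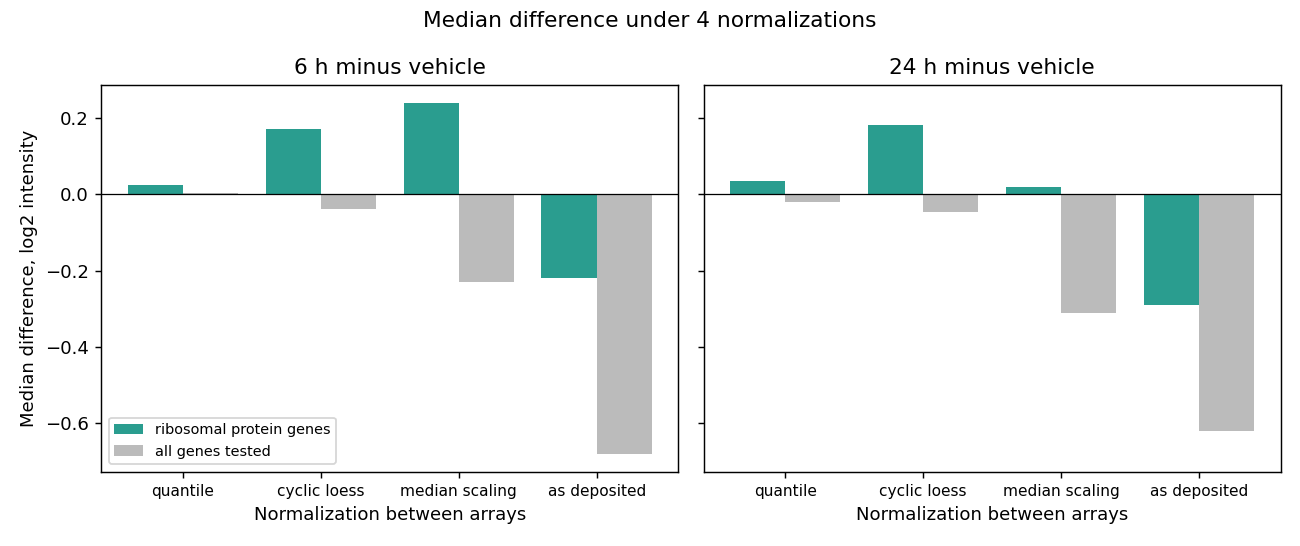
Median difference from vehicle (y axis, log2 intensity) over the 47 ribosomal protein genes in green and over all genes tested in grey, under 4 normalizations (x axis), at 6 h on the left and 24 h on the right. The green bar lies above the grey bar in every pair, and as deposited both lie below 0.

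The genes were also grouped by their place in the ribosome. Rps2, Rps3 and Rps9 surround the entry of the mRNA channel, and at 6 h they differed by 0.21 ± 0.16, 0.15 ± 0.15 and -0.10 ± 0.15. The 5 genes measured around the mRNA exit, Rpsa, Rps3a1, Rps14, Rps26 and Rps28, lay between -0.09 and 0.09 at 6 h and between -0.12 and 0.09 at 24 h. Rpl11, which with Rpl5 binds 5S rRNA and can restrain Mdm2, differed by 0.08 ± 0.16 at 6 h and 0.10 ± 0.16 at 24 h. Of the genes mutated in Diamond-Blackfan anaemia in humans, 7 were measured, and their differences ran from -0.16 to 0.15 at 6 h. None of these was called.

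Paralogues replace a core protein in some tissues. Rpl22l1, paralogue of Rpl22, read 12.45, 12.28 and 12.27 in vehicle, 12.18, 12.27, 12.80 and 12.92 at 6 h and 12.28, 12.60, 12.44 and 11.86 at 24 h, with 6 h replicates 3 and 5 highest. Its partner Rpl22 differed by 0.00 ± 0.14 at 6 h and 0.01 ± 0.14 at 24 h. Dimmer probe sets of Rpl22 alone, of levels 12.25 and 8.94, gave 0.24 and -0.12 at 6 h and 0.18 and 0.59 at 24 h. Rps27l, a p53 target in other settings, was also highest on 24 h replicate 2 and 6 h replicate 5, at 12.95 and 12.92, and its differences were 0.13 ± 0.25 and 0.11 ± 0.25. On the probe set used, Rpl7l1 lay above vehicle on all 6 h arrays, at 9.29, 9.24, 9.48 and 9.16 against 9.10, 8.98 and 9.03. Dimmer probe sets of Rpl7l1 alone, of levels 8.25 and 5.05, gave -0.11 and 0.34 at 6 h. Rpl7 differed by -0.05 ± 0.15, and its other probe sets, of levels 13.03 and 12.27, gave -0.06 and 0.29. Rps4x, the partner of the pseudogene Rps4l, differed by 0.04 ± 0.14 at 6 h and -0.02 ± 0.14 at 24 h. Rpl39l, best known from the testis, read 9.81, 9.90 and 9.78 in vehicle and scattered from 8.78 to 10.46 at 6 h and from 8.04 to 10.01 at 24 h. Of the testis markers Prm1, Prm2, Tnp1, Tnp2 and Ldhc, 3 did not pass the filter, and the mean of the other 2 was 4.65 to 5.78 over all arrays, near the floor.

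Rpl3l is expressed in skeletal and heart muscle in place of Rpl3. It read 7.91, 9.54 and 9.82 in vehicle, 8.55, 9.48, 9.13 and 8.81 at 6 h and 9.74, 9.29, 9.73 and 9.70 at 24 h. The groups overlapped, and the lowest array was vehicle replicate 1. The 24 h difference of 0.53 ± 0.40 became -0.063 without that array, and the 6 h difference of -0.10 ± 0.40 became -0.69. The muscle markers were present in all samples: Ckm, muscle creatine kinase, read 12.16, 13.06 and 13.43 in vehicle, Acta1 13.35, 13.57 and 13.73, and Myh4 12.05, 11.52 and 12.54. Ckm was lowest on 6 h replicate 5 and vehicle replicate 1, at 12.15 and 12.16. The mean of the 9 muscle markers was 12 to 12.82 in vehicle, 12.05 to 12.72 at 6 h and 12.52 to 13.01 at 24 h, and its part in the Rpl3l values was not tested.

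The genes whose levels followed Rpl3l most closely over the 11 arrays, of 13708 compared, were Rbm24, Cfl2, Tnni2, Pgam2 and Hjv. Pearson's r was 0.951, 0.949, 0.944, 0.937 and 0.936, and Spearman's rho 0.827, 0.936, 0.864, 0.809 and 0.900. Without vehicle replicate 1, r was 0.889, 0.951, 0.874, 0.869 and 0.919. These are the highest of many correlations over arrays that share a normalization, and they are a description only. Tnni2 encodes fast troponin I, Pgam2 the muscle phosphoglycerate mutase and Cfl2 the muscle cofilin.

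**Figure D5:**
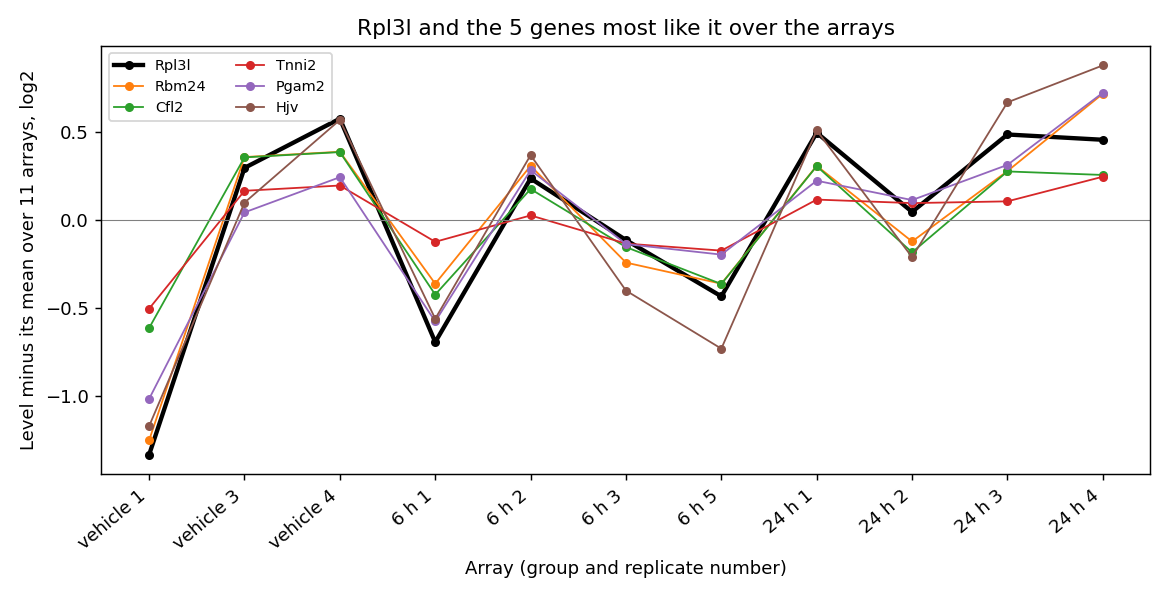
Level of Rpl3l (black) and of the 5 genes most like it, each minus its own mean over 11 arrays (y axis, log2), on each array (x axis, group and replicate number). Vehicle replicate 1 is the lowest array for Rpl3l, and 6 h replicate 1 the next.

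Other genes of translation, from lists that the symbol rule does not use, gave 0 calls in any comparison. Fau, whose product carries the small subunit protein eS30, differed by -0.06 ± 0.14 at 6 h. Of 19 other genes whose mRNAs carry a TOP motif, 12 were higher and 7 lower at 6 h, with a median of 0.06, where 50.4% of all genes were higher. Npm1, a nucleolar chaperone, differed by 0.46 ± 0.14 at 6 h and Btf3, of the nascent chain complex, by 0.40 ± 0.13. Of the snoRNA host genes, Gas5 differed by 0.51 ± 0.18 and Snhg1 by 0.57 ± 0.22. These 4 were the ones of the 19 with an unadjusted p under 0.05 (limma adjusted p = 0.19 to 0.25). Of all genes, 16.1% reached this p and 8.02% did so above vehicle. Between 24 h and 6 h Npm1 and Btf3 differed by -0.37 ± 0.13 and -0.38 ± 0.12. In that comparison 4 of the 19 were higher and 15 lower, with a median of -0.08, where 47.4% of all genes were higher. The smallest p at 24 h was that of Nap1l1, a histone chaperone, which differed by -0.54 ± 0.16 from vehicle (limma adjusted p = 0.53) and by -0.51 ± 0.15 from 6 h.

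Of 30 initiation factors, 19 were higher and 11 lower at 6 h with a median of 0.05, and the smallest p was that of Eif3i, at 0.46 ± 0.15. Of 12 elongation and termination genes, 6 were higher and 6 lower, and Abce1, which splits ribosomes for reuse, differed by 0.57 ± 0.24. Of 13 genes of rRNA synthesis, 9 were higher and 4 lower. Polr1d, a subunit of RNA polymerases I and III, differed by 0.58 ± 0.15 at 6 h (limma adjusted p = 0.16), and Polr1e by 0.40 ± 0.18. The 76 mitochondrial ribosomal protein genes divided into 38 higher and 38 lower at 6 h and 49 higher and 27 lower at 24 h, with medians of -0.01 and 0.07. Of 11 genes of the mTORC1 and Larp1 pathway, 5 were higher and 6 lower at 6 h. Of 13 genes that carry or assemble ribosomal proteins, 8 were higher and 5 lower. Aamp differed by -0.59 ± 0.23, Efl1 by 0.48 ± 0.19 and Rrs1 by 0.41 ± 0.18. Aamp was lowest on 6 h replicate 5, the array with the lowest actin ratio, at 7.65 against 8.40 to 8.62 on the other 6 h arrays. Over all genes, 50.4% were higher at 6 h and 47.6% at 24 h.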

How the data were processed

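Expression in whole skin of 11 mice was measured on Affymetrix mouse arrays from 200 ng of total RNA each, per the labels' protocols. The deposited table holds 1 intensity per probe set and array on a linear scale, and no source used here gives the software, background method or scaling. Intensities were quantile-normalized, set to at least 0 and taken as log2(intensity + 16). Probe sets annotated to several genes were left out, and symbols were updated through RefSeq (GRCm38.p6). A gene was kept when its brightest probe set exceeded the array's 40th percentile on at least 3 arrays. Groups were compared with limma 3.58.1 in R 4.3.3, in 1 two-sided fit over 11 arrays with Benjamini-Hochberg adjustment, after the procedure was tested on simulated data. The members, lists and tests were chosen with earlier results of these data known. Genes named are the 5 largest rises and falls and the 5 smallest p of the set per comparison, the paralogues with their partners and a few fixed genes, and up to 4 genes of smallest p per pathway list; Rps2, Rps18, Rps24 and other genes named for their place or for groups that did not overlap were named after their values were seen. Differences were rounded to 10 decimals before they were counted as higher or lower. Same-numbered vehicle and 24 h arrays had deviations that correlated at 0.25, 0.13 and 0.21, which met the criterion for pairs, although arrays of different numbers reached 0.21 as well (vehicle replicate 4 with 24 h replicate 2); vehicle and 6 h arrays correlated at -0.12 and -0.074. The number of arrays limits the precision. Alternatives covered normalization, pseudocount, filter, probe set choice, variance model, replicate block, actin ratio and each array left out.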

Additional observations from a re-analysis of the deposited data

Results flagged for a closer look

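Of 56 groups of 4 arrays checked for the named genes and for the median of the set, 3 held a value far from the other 3, where chance gives about 1 in 20. Rpl3l read 9.29 on 24 h replicate 2, against 9.70 to 9.74 on the other 24 h arrays. Rps26 read 12 on 6 h replicate 5, against 12.50 to 12.55, and 12.77 on 24 h replicate 4, against 12.42 to 12.47. The first of these Rps26 arrays has the lowest actin ratio (0.0725) and the second the highest mean of basal keratinocyte markers (12.12); their part in these values was not tested.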

How the results depend on the processing

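No ribosomal protein gene was called at 24 h under any of the 30 alternatives, and at 6 h and between 24 h and 6 h only array weights gave calls, 6 and 2 (Rpl12 and Rpl14), in fits that called 18.2% and 3.09% of all genes. Leaving out each array gave 0 calls in every comparison. The median of the set at 6 h, 0.025, was -0.22 as deposited, 0.24 after median scaling, 0.17 after cyclic loess, 0.097 with the mean of probe sets, 0.08 with the median over a gene's probe sets, 0.047 with probe sets ending in x_at or s_at left out, 0.048 with the replicate block, 0.052 with the actin ratio as covariate and -8.2e-05 without the 5 dim core genes Rpl12, Rpl14, Rpl27a, Rps6 and Rps25. At 24 h it was 0.034, against -0.29 as deposited, 0.18 after cyclic loess, 0.072 with the mean and also with the median of probe sets, 0.0088 with array weights, 0.011 with the replicate block and 0.012 without the arrays of actin ratio under 0.3. Between 24 h and 6 h it was -0.015, against -0.083 as deposited, -0.22 after median scaling, 0.032 after cyclic loess, -0.057 with the mean of probe sets, -0.042 with probe sets ending in x_at or s_at left out and -0.037 with array weights. Leaving out 1 array moved these medians over 0.018 to 0.047, 0.0015 to 0.039 and -0.039 to 0.013. The median of the probe sets of level under 12 at 6 h, 0.38, was -0.16 as deposited and 0.34 to 0.44 with 1 array left out. The cause of these shifts was not tested. As deposited, 2 genes were called higher and 857 lower at 6 h over the whole array, against 0 in the main fit. The replicate block changed no call of the set. The medians over the probe sets of a gene, without the dim genes, without 2 arrays together and by level were chosen after seeing the data. Of 2424 values of the 27 named genes under the alternatives, 2271 moved by less than 1 SD between replicates. The 2271 include alternatives that cannot change a difference, such as the variance trend, the filter or leaving out an array of a group not compared. Their share therefore overstates how stable the values are. Signal near the top of the array limits what can be seen: ranks of the brightest probe sets leave quantile normalization little room.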
